A study of Mus musculus with 2 samples.

Results

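The genes of antigen presentation in 2 mouse prostate tumours were examined through the rows of a gene count table whose symbol starts with H2-, the prefix of the mouse major histocompatibility complex (MHC), together with B2m, Tap1, Tap2, Tapbp, Cd74, Ciita, Nlrc5, Psmb8, Psmb9, Psmb10 and Erap1. This rule found 50 of the 27376 rows, under 48 symbols, since Psmb9 and Ciita each have a pair of rows. By their known roles 36 rows belonged to class I presentation and 12 to class II presentation. The remaining 2, H2-Ke2 and H2-Ke6, lie in the MHC region but have no known part in presenting antigen.

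One library came from a tumour of genotype Bcat_Only and 1 from a tumour of genotype Met_Bcat, both taken from mice aged 16 months. The heading of the Bcat_Only column adds PB Cre and an exon allele of beta-catenin, per the file headers, and that of Met_Bcat adds no allele. PB, the probasin promoter, is active in prostate epithelium. The labels name neither the strain nor the H2 haplotype of the mice, so how closely their MHC alleles match the mm9 reference is not known. RNA came from whole tumour tissue with no cell sorting described.

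MHC class I molecules stand on nearly all nucleated cells and show peptides made inside the cell to CD8 T cells. Their heavy chain pairs with beta-2-microglobulin, the immunoproteasome cuts the peptides, the TAP transporter carries them into the endoplasmic reticulum, and the factor NLRC5 drives the genes. MHC class II molecules are made mainly by dendritic cells, macrophages and B cells, and can be induced in epithelium. They show peptides of engulfed material to CD4 T cells, with the invariant chain CD74 as their chaperone, DM and DO chains as editors of the peptide, and the factor CIITA as their master regulator.

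The libraries held 19301062 reads assigned to genes for Bcat_Only and 20117724 for Met_Bcat. Levels are given in CPM, read counts scaled by library size, after TMM scaling, which assumes most genes to be alike between libraries. Paired values without names give Bcat_Only first and Met_Bcat second, and ratios compare Met_Bcat with Bcat_Only. A single tumour per genotype allows neither a replicate check nor a test. Each ratio carries a 95% exact interval that covers counting error only, and differences compare these 2 tumours, not the genotypes. The 2-fold rule calls a gene higher or lower if its whole interval lies 2-fold or more from no difference and its mean level reaches 1 CPM.

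Many class II promoters share an X box and a Y box, the landing site of the factors to which CIITA and NLRC5 bind. Class I promoters are also known for a kappa B site. The RefSeq promoter table (GRCm38.p6) held 38 of the 48 symbols. H2-Ab1, Cd74, Ciita and Nlrc5 were among those without an entry, so their promoters were not searched. The 250 bases before each start were searched on both strands for the letters CTNGNNAC (X box), for ATTGG (Y box) and for an X box followed by a Y box on the same strand after 10 to 40 bases. That arrangement, a pattern that misses X boxes of other letters, stood in 4 of 8 class II genes and 2 of 29 class I genes. Among the 27025 genes in the table the share with that arrangement was 1.502%. The arrangement is printed for the 4 class II genes and for B2m, the members of the 2 classes that carry it on the gene's own strand. Its part in their levels was not tested. The X and Y boxes are in capitals and each line reads 5′ to 3′ on the gene's strand.
H2-Aa, chr17:34287855-34287919, minus strand: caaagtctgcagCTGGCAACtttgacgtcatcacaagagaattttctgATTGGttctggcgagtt
H2-Eb1, chr17:34305761-34305824, plus strand: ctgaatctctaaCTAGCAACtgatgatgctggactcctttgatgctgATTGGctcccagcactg
H2-DMb1, chr17:34153082-34153146, plus strand: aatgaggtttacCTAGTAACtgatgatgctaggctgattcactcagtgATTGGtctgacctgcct
H2-Ob, chr17:34238803-34238864, plus strand: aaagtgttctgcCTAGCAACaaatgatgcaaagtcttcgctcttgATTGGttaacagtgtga
B2m, chr2:122147593-122147650, plus strand: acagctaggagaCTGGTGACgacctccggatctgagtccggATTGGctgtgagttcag

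The boxes were 28 bases apart in H2-Aa and H2-DMb1, 27 in H2-Eb1, 25 in H2-Ob and 21 in B2m. The other class I match, in H2-M2, lay on the strand opposite to the gene. A kappa B site, searched as the 10 letters in capitals in the next 4 sequences, was found before 4 of 29 class I genes, 0 of 8 class II genes and 0.0999% of all genes. Those 4 are shown because they include both classical heavy chains.
H2-K1, chr17:34000437-34000470, minus strand: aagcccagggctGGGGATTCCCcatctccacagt
H2-D1, chr17:35262911-35262944, plus strand: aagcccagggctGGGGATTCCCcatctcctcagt
H2-Q6, chr17:35424665-35424698, plus strand: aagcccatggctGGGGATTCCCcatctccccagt
H2-Q7, chr17:35439010-35439043, plus strand: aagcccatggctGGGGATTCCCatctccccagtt

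An interferon element, searched as GAAA, any 2 bases and GAAA again, stood before B2m, H2-T22 and H2-T23 and in 3.46% of all genes. Alone, the Y box was present in 23 of 29 class I and 8 of 8 class II genes, against 37.5% of all genes, and the X box in 14 of 29 and 5 of 8, against 38.9%. These matches describe letters in a window and not the binding of a factor.

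H2-Aa, H2-Ab1, H2-Eb1 and Cd74, genes of class II chains and their chaperone, were higher in the Met_Bcat tumour, by close to the same factor. Most class I genes were at or below their level in Bcat_Only. Of the 31 members whose mean level reached 1 CPM, 10 were class II, 20 class I and 1 neither. By the 2-fold rule 1 of the 31 was higher (3.23%, against 4.42% of all 14354 genes considered) and 5 were lower (16.1%, against 14.6%), shares that lie near those of all genes and are no result about the members. The contrast lay in the smaller differences. The median log2 ratio of CPM plus 0.5 was 0.56 for class II and −0.44 for class I, against 0.03 for all genes, whose quartiles were −0.53 and 0.33. With the rule set at 1.5-fold, 5 of the 10 class II genes were higher (50%) and 1 lower (10%), against 8.12% higher and 19.7% lower among all genes. Of the 20 class I genes 1 was higher (5%) and 5 lower (25%), shares that lie near those of all genes.

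**Figure D1:**
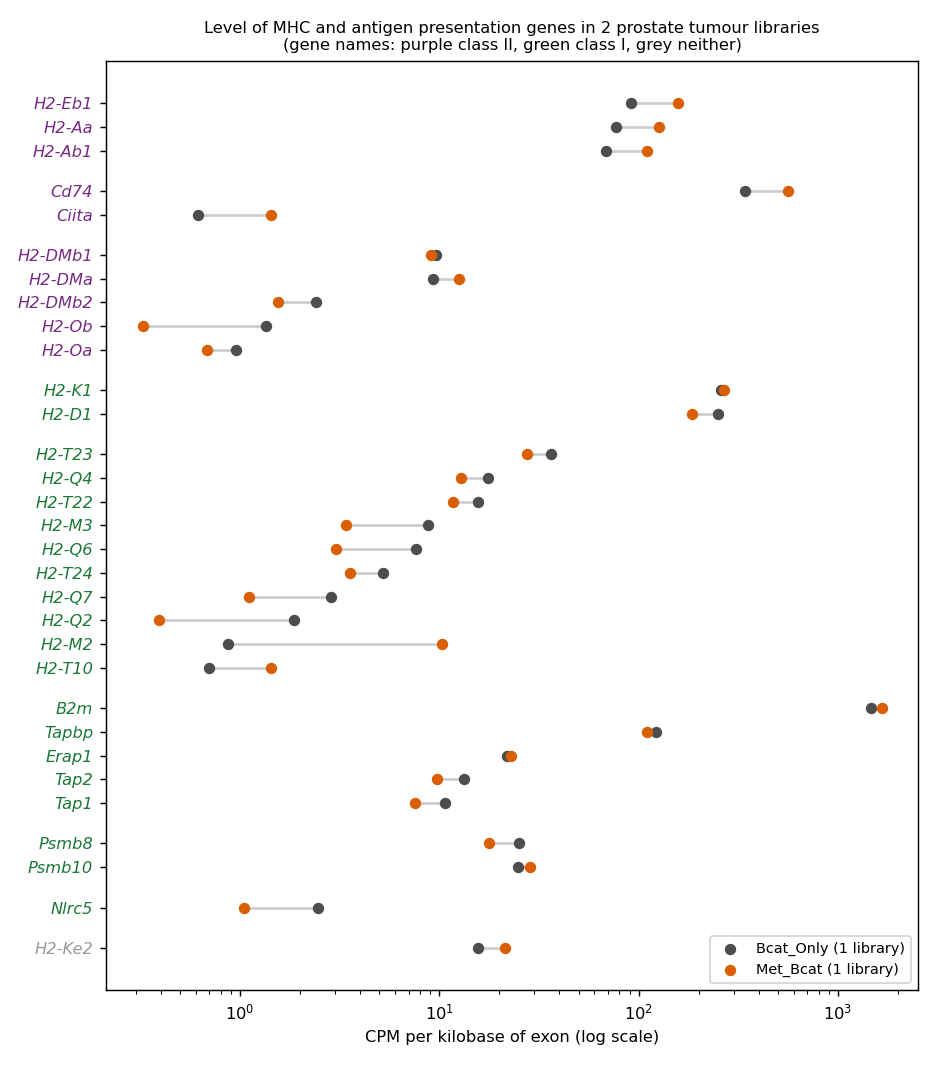
Level of the 31 members whose mean level reached 1 CPM, in CPM per kilobase of exon on a log axis, with 1 point for each library (grey Bcat_Only, orange Met_Bcat) and gene names coloured by class. H2-Aa, H2-Ab1, H2-Eb1, Cd74, Ciita and H2-DMa lie to the right in Met_Bcat, the other class II genes and most class I heavy chains lie to the left, and B2m, at 1464 and 1654, is the highest of the members in both libraries.

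H2-Aa encodes the alpha chain of the class II molecule I-A (ENSMUSG00000036594, mm9 chromosome 17, 34406276 to 34424772). It had 2820 and 5267 reads, or 153 and 250 CPM, 1.63-fold higher (1.56 to 1.71). H2-Ab1, its beta chain partner (ENSMUSG00000073421, 34400154 to 34406363), went from 113 CPM to 182 CPM, 1.61-fold higher (1.53 to 1.70). The pair moved together, with 1.36 H2-Aa reads per H2-Ab1 read in Bcat_Only and 1.37 in Met_Bcat, a change of 1.01-fold (0.942 to 1.08). The models of these genes overlap at their ends on opposite strands.

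H2-Eb1, the beta chain of the class II molecule I-E (ENSMUSG00000060586, 34442828 to 34453144), stood at 109 and 186 CPM, 1.72-fold higher (1.63 to 1.81). The rule found no row with the symbol of its alpha chain, H2-Ea. Cd74, the invariant chain (ENSMUSG00000024610, chromosome 18, 60963502 to 60972300), had 8918 and 16659 reads, or 484 and 790 CPM, 1.63-fold higher (1.59 to 1.68). Although Cd74 lies on another chromosome, its reads per read of the 3 I-A and I-E chains were 1.29 in Bcat_Only and 1.28 in Met_Bcat, a change of 0.989-fold (0.951 to 1.03). H2-Eb1 and H2-Ab1 reads also kept their ratio, with a change of 1.06-fold (0.985 to 1.15). The 4 genes H2-Aa, H2-Ab1, H2-Eb1 and Cd74 thus kept their proportions within counting error while their summed level went from 858 to 1409 CPM.

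Ciita, the class II transactivator (ENSMUSG00000022504, chromosome 16, 10480237 to 10527657), had few reads, 70 in Bcat_Only and 188 in Met_Bcat. At 3.80 and 8.92 CPM it was 2.35-fold higher (1.78 to 3.14), which stayed below the 2-fold rule at its near end. A second row with the same symbol, inside the first, had 3 reads in each library. Nlrc5, its class I counterpart (ENSMUSG00000074151, chromosome 8, 96996663 to 97051172), went the other way, from 332 to 161 reads and from 18.02 to 7.64 CPM, 2.36-fold lower (1.95 to 2.87), also just below the rule. Over both of its rows Ciita had 0.220 reads for each Nlrc5 read in Bcat_Only and 1.19 in Met_Bcat, a 5.40-fold difference (3.88 to 7.50).

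The 5 chains of the class II peptide editors went different ways. DM, a dimer of DMa and DMb chains, exchanges the invariant chain remnant for antigenic peptide, and DO, made of Oa and Ob chains, restrains DM and is known from B cells and some dendritic cells. H2-DMa had 15.2 and 20.6 CPM, 1.36-fold higher (1.17 to 1.58). H2-DMb1 had 14.3 and 13.5 CPM, an interval that spans no difference (1.06-fold lower, 0.892 to 1.26), and H2-DMb2 had 4.13 and 2.66 CPM, 1.55-fold lower (1.08 to 2.23). Those beta chain genes share 22.3% of the words of 51 bases, the read length, that make up the H2-DMb1 transcripts, so reads may be divided between them. For each read of the I-A and I-E chains there were 0.0897 DM reads in Bcat_Only and 0.0595 in Met_Bcat, 1.51-fold fewer (1.35 to 1.68).

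H2-Ob was the 1 class II gene lower by the 2-fold rule (ENSMUSG00000041538, 34375848 to 34390850), with 80 and 22 reads, or 4.34 and 1.04 CPM, 4.16-fold lower (2.57 to 7.01). Its partner H2-Oa had 23 and 19 reads, 1.25 and 0.902 CPM, which could not be told apart at this depth (1.38-fold lower, 0.721 to 2.69). Relative to H2-Ab1, H2-Ob was 6.72-fold lower (4.18 to 10.8). H2-Eb2, a further class II beta chain gene, had 30 and 5 reads, 6.86-fold lower (2.64 to 22.7). Its mean lay below 1 CPM, so the 2-fold rule was not applied to it. The B cell markers had a median log2 ratio of −3.71, and their part in the H2-Ob value was not tested.

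Both classical class I heavy chains were abundant in each tumour and differed little. H2-K1 (ENSMUSG00000061232, chromosome 17, 34132962 to 34137278) had 12476 and 14773 reads, or 677 and 701 CPM, 1.04-fold higher (1.01 to 1.06). H2-D1 (ENSMUSG00000073411, 35399675 to 35404444) had 11926 and 10089 reads, or 647 and 479 CPM, 1.35-fold lower (1.32 to 1.39). The chains thus stood near parity in Bcat_Only, at 0.956 H2-D1 reads per H2-K1 read, and apart in Met_Bcat, at 0.683. This ratio does not depend on library scaling and was 1.40-fold lower in Met_Bcat (1.35 to 1.45). Of the transcript words of 51 bases, 9.22% of those in H2-K1 and 12.2% of those in H2-D1 also occur in another gene.

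The non-classical heavy chains, called class Ib, present special ligands or engage receptors of innate lymphocytes. Of 24 such rows 10 reached a mean of 1 CPM, of which 1 was higher (10%, against 4.42% of all genes) and 4 lower (40%, against 14.6%) by the 2-fold rule. With total counts 3 of these 4 were lost, and the other, H2-Q2, reached the minimum level only through Bcat_Only. H2-T23, which encodes Qa-1, the ligand of the NKG2A receptor, had 105 and 79.2 CPM, 1.33-fold lower (1.24 to 1.42). H2-T22, a ligand of gamma-delta T cells, had 53.5 and 40.2 CPM, 1.33-fold lower (1.21 to 1.46), and its neighbour H2-T24 had 11.5 and 7.78 CPM, 1.47-fold lower (1.19 to 1.82). The 3 genes, which lie within 36142640 to 36179692 on chromosome 17, differed by similar factors. H2-T10 had 44 and 103 reads, 2.05-fold higher (1.42 to 2.98), but 31.0% of its transcript words occur in H2-T22, and 52.9% of those of H2-T22 in other genes, so the count of each may hold reads of the other.

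All 4 measured genes of the Q series had ratios below 1. H2-Q4 had 46.6 and 34.2 CPM, 1.36-fold lower (1.23 to 1.51). H2-Q6 and H2-Q7, the genes of Qa-2, had 16.5 and 12.2 CPM in Bcat_Only against 6.55 and 4.74 CPM in Met_Bcat, 2.52-fold (2.05 to 3.10) and 2.56-fold lower (2.02 to 3.28). Both lie just inside the rule, as does H2-M3, which presents formylated bacterial peptides, at 12.6 and 4.89 CPM and 2.58-fold lower (2.03 to 3.28). H2-Q2 had 75 and 18 reads, or 4.07 and 0.854 CPM, 4.77-fold lower (2.82 to 8.47). With libraries scaled to total counts, H2-Q2 was the 1 class I gene still lower by the rule, and H2-Q6, H2-Q7 and H2-M3 missed it. Copies of the Q series are alike: 35.6% of the words of H2-Q4, 34.3% of those of H2-Q6, 25.98% of those of H2-Q7 and 15.6% of those of H2-Q2 occur in other genes, so their counts are uncertain one by one.

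H2-M2, a class I-like gene at the far end of the MHC (ENSMUSG00000016283, chromosome 17, 37617796 to 37620497), was the 1 heavy chain gene higher by the 2-fold rule. It had 25 and 338 reads, or 1.36 and 16.0 CPM, 11.8-fold higher (7.87 to 18.5). Of its transcript words 1.49% occur in another gene. The class I genes H2-M1, H2-M10.1 to H2-M10.6, H2-M11, H2-M5, H2-T3 and H2-Bl had at most 5 reads in either library. H2-Q1 had 15 and 9 reads, H2-Q10 19 and 5, and H2-M9 13 and 7, all with means below 1 CPM.

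**Figure D2:**
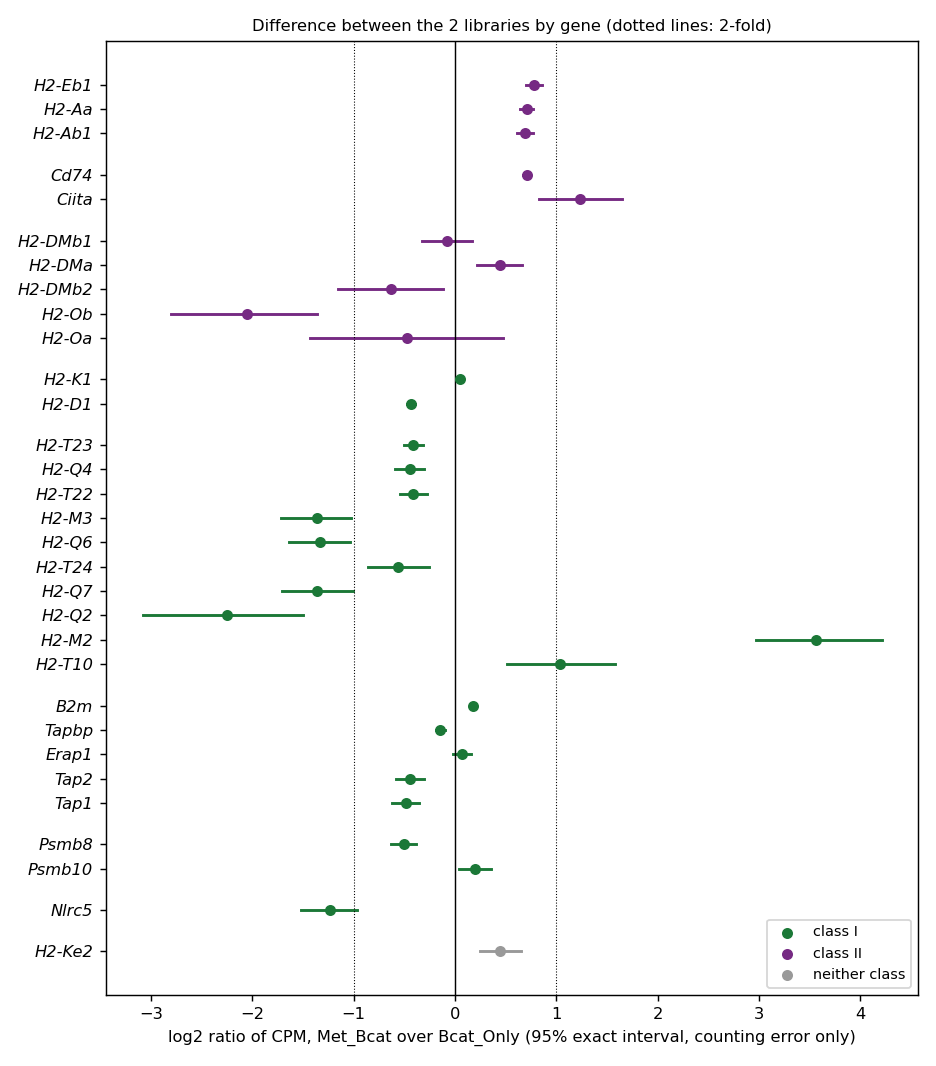
Log2 ratio of CPM, Met_Bcat over Bcat_Only, for the same 31 genes, with 95% exact intervals for counting error (green class I, purple class II, grey neither; dotted lines at 2-fold). H2-Aa, H2-Ab1, H2-Eb1 and Cd74 form a tight column between 0.69 and 0.78, while H2-M2 at 3.56 and H2-Q2 at −2.25 are the ends of the range.

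Genes of class I peptide supply differed modestly in either direction. Tap1 and Tap2, the subunits of the peptide transporter, had 58.2 and 50.4 CPM in Bcat_Only and 41.5 and 37.0 CPM in Met_Bcat, 1.40-fold (1.28 to 1.53) and 1.36-fold lower (1.24 to 1.501). Psmb8, an immunoproteasome subunit encoded between them (34334666 to 34338399), had 68.6 and 48.3 CPM, 1.42-fold lower (1.31 to 1.54). These 3 neighbours lie on chromosome 17 between H2-DMb1 and H2-Ob, next to the segment with H2-Ab1, H2-Aa and H2-Eb1, which were higher.

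Psmb10, an immunoproteasome subunit on chromosome 8, had 31.6 and 36.3 CPM, 1.15-fold higher (1.03 to 1.28). Psmb9, the third such subunit, is listed at 0 reads in both libraries in each of its 2 rows, which overlap over 5765 bases on the same strand. Of 29 pairs of rows in the table that share symbol and strand and overlap over at least 90% of both, 16 were at 0 throughout, against 27.4% of all rows. The level of Psmb9 was therefore not read from this table.

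The class I genes B2m, Tapbp and Erap1 differed by 1.13-fold or less. B2m, the light chain of every class I molecule (ENSMUSG00000060802, chromosome 2, 121973422 to 121978819), had 23190 and 29979 reads, or 1259 and 1422 CPM, 1.13-fold higher (1.11 to 1.15). Tapbp, the tapasin that links TAP to the heavy chain, had 403 and 364 CPM, 1.11-fold lower (1.07 to 1.14), and Erap1, which trims peptides, had 103 and 108 CPM, an interval that spans no difference (1.05-fold higher, 0.985 to 1.11). Tapbp encloses another gene on its strand in the table, and 22.999% of its transcript words occur in other genes. H2-Ke2, which has no presenting role, had 18.6 and 25.4 CPM, 1.36-fold higher (1.19 to 1.57), and H2-Ke6 had 4 and 6 reads.

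The contrast between the classes can be stated without any scaling of libraries. Class II genes held 16640 of the reads of both classes in Bcat_Only, a share of 20.1% (exact interval 19.9% to 20.4%), and 30701 in Met_Bcat, 29.7% (29.4% to 30.0%). Per class I read there were 0.252 class II reads in Bcat_Only and 0.423 in Met_Bcat, 1.68-fold more (1.64 to 1.71). Between the I-A and I-E chains and the classical heavy chains alone, the ratio per kilobase of exon went from 0.465 to 0.867. Without Cd74 and B2m, the members with most reads in each class, the read ratio was 1.83-fold higher (1.77 to 1.88).

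Marker genes of cell types were then read, although in whole tissue fewer cells of a type and less RNA per cell cannot be told apart. The 6 pan-leukocyte markers were all lower in Met_Bcat by the 2-fold rule, with a median of −2.15 and a summed level of 1105 and 279 CPM. Ptprc, which encodes CD45, had 181 and 25.6 CPM, 7.05-fold lower (6.44 to 7.74). Of 12 macrophage markers 11 were lower and 0 higher, with summed levels of 2077 and 449 CPM. Mrc1, the mannose receptor, was 22.1-fold lower (19.5 to 25.01) and Msr1, a scavenger receptor, 9.97-fold lower (8.62 to 11.6). Cd163 had 828 reads against 0, which is 315.7-fold lower with the 0 set to the floor of 3 reads. The near end of its interval was 256-fold.

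B cell markers were lower for 5 of the 6 with at least 1 CPM, at summed levels of 63.1 and 5.31 CPM over all 8. The B cell receptor genes Cd79a and Cd79b went from 273 to 6 and from 240 to 1 read, Ms4a1, the CD20 gene, had 266 and 4, and Pax5 and Fcer2a were at 0 in Met_Bcat. Markers of both these cell types known for class II were thus lower in the tumour whose class II RNA was higher. Which cells carried the class II RNA was not tested. The summed level of H2-Aa, H2-Ab1, H2-Eb1 and Cd74 was 858 and 1409 CPM, that of the 6 pan-leukocyte markers 1105 and 279 CPM.

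Dendritic cell markers went in both directions, with a median of 0.65 over the 9 measured, 3 higher and 2 lower, and summed levels of 141 and 154 CPM. Xcr1, a chemokine receptor of cross-presenting dendritic cells, had 1 read against 47, a ratio of 41.1-fold (7.02 to 1657). Itgax and Itgae, the genes of CD11c and CD103, named here after their values were seen, had 158 and 54 reads against 816 and 347, 4.51-fold (3.80 to 5.39) and 5.62-fold higher (4.21 to 7.63). Clec10a, a lectin shared with macrophages, was 9.17-fold lower (6.83 to 12.6) and Siglech, of plasmacytoid dendritic cells, had 39 and 3 reads, 14.9-fold lower (4.73 to 75.2). Cd209a was at 0 in Met_Bcat. Xcr1 and Siglech reached the minimum level only through the library in which they were high, and over the 3 dendritic genes with a mean of 10 CPM the median was −0.21. CD11c and CD103 are also found on other leukocytes, CD103 on T cells within epithelium, and the part of any cell type in the class II values was not tested.

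**Figure D3:**
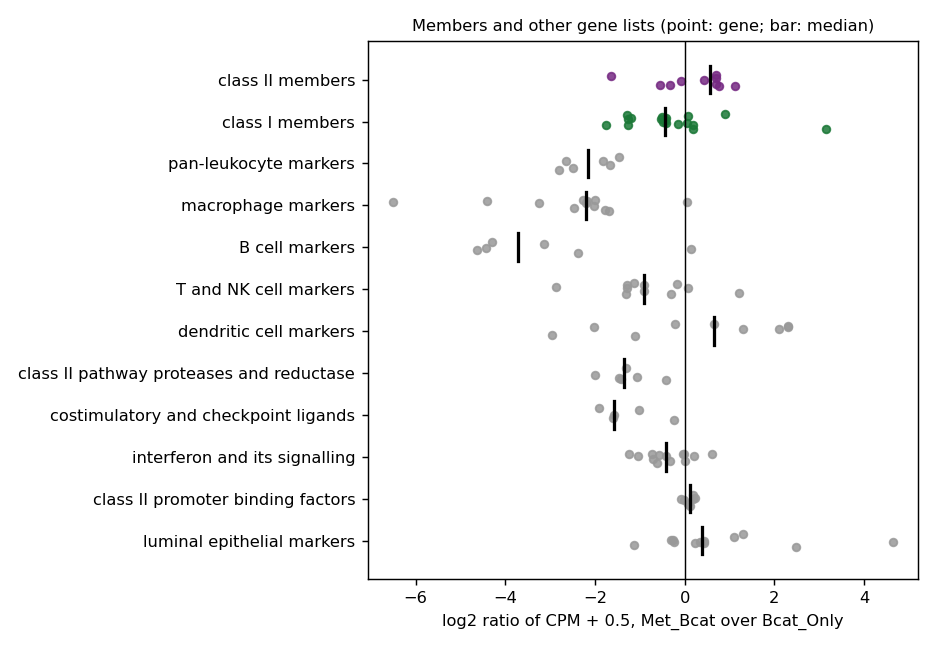
Log2 ratio of CPM plus 0.5, Met_Bcat over Bcat_Only, for each gene whose mean level reached 1 CPM (points) and the median of each list (bars), for class II members (purple), class I members (green) and lists of other genes (grey). The class II median of 0.56 lies to the right of 0, as do those of dendritic cell (0.65) and luminal epithelial markers (0.39) and of class II promoter binding factors (0.12). To the left lie the medians of class I members (−0.44) and of the other lists. Among these are the pan-leukocyte (−2.15), macrophage (−2.19) and B cell markers (−3.71).

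T and NK cell markers, the cells that read MHC, had a median of −0.92 over 11 genes, 1 lower and 0 higher, at 66.4 and 43.1 CPM summed. Cd4, the coreceptor for class II, had 251 and 30 reads, 9.57-fold lower (6.54 to 14.5), Klrb1c and Nkg7 had 33 and 120 reads against 9 and 50, and Ncr1 was at 0 in Met_Bcat. Of the 11 genes 2 had log2 ratios above 0, Cd3g and Cd8a, both named after their values were seen. Cd3g, a chain of the T cell receptor complex, was 2.44-fold higher (1.92 to 3.12). Cd8a, the coreceptor for class I, had 98 and 119 reads, an interval that spans no difference. Further T cell genes, named likewise, were lower: Cd3d 2.21-fold (1.39 to 3.59), Trac 2.61-fold (1.65 to 4.24) and Cd8b1 3.85-fold (1.92 to 8.36). For Cd3e, with 119 and 108 reads, and Lck, with 147 and 148, the intervals span no difference. With total counts or the upper quartile 1 gene of this list was higher and 1 lower, and with luminal scaling 6 were lower. Among 12 luminal epithelial markers 4 were higher and 1 lower, with a median of 0.39, among the higher ones Hoxb13 (5.69-fold, 5.18 to 6.27) and Foxa1 (2.47-fold, 2.35 to 2.60), at summed levels of 3836 and 6289 CPM. Epcam, an epithelial adhesion gene, had 381 and 325 CPM. Among the 8 endothelial markers 6 were lower (3 with total counts) and 0 higher, with a median of −1.22 and summed levels of 584 and 390 CPM. For the fibroblast markers 7 of 8 were lower, with a median of −3.01 and summed levels of 22978 and 894 CPM.

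All 6 genes of the class II proteases and reductase had ratios below 1, 4 of them past the 2-fold rule, with a median of −1.36. Lgmn, the asparaginyl endopeptidase that opens antigens, was 4.01-fold lower (3.83 to 4.20), Ctsb 2.76-fold (2.70 to 2.82) and Ctsl 2.67-fold (2.57 to 2.78). Cathepsin S, Ctss, which trims the invariant chain and is named here after its value was seen, had 418 and 170 CPM, 2.47-fold lower (2.37 to 2.57), in contrast to Cd74. March1, a ubiquitin ligase that removes class II from the surface of antigen presenting cells, had 641 and 108 reads, 6.79-fold lower (5.53 to 8.40), while its relatives March9 and March8 were 1.73-fold (1.48 to 2.03) and 1.51-fold higher (1.44 to 1.59), a median of 0.59 over the 3.

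Genes of the factors known to bind X and Y boxes differed little, with 0 of 7 past the rule and a median of 0.12. Creb1 and Nfya had the ratios farthest from 1, 1.18-fold (1.11 to 1.26) and 1.15-fold higher (1.06 to 1.24). Of 5 costimulatory and checkpoint ligands measured 3 were lower and 0 higher, with a median of −1.57: Cd80 4.18-fold (3.20 to 5.53), Cd274, the PD-L1 gene, 3.15-fold (2.63 to 3.80) and Cd40 3.61-fold (2.40 to 5.56).

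Interferon gamma is the known inducer of both classes and of the immunoproteasome. Its gene Ifng had 1 read in Bcat_Only and 0 in Met_Bcat, too few for a comparison. Among 13 measured genes of interferon signalling 1 was lower and 0 higher, with a median of −0.41. Ifnar2, a chain of the type I interferon receptor, was 2.37-fold lower (2.17 to 2.59), the kinase gene Jak1 1.67-fold lower (1.61 to 1.73) and the feedback gene Socs1 2.31-fold lower (1.59 to 3.42). Irf1, a transcription factor of the interferon response named after its value was seen, was 1.26-fold lower (1.16 to 1.36). Ifngr2, a chain of the interferon gamma receptor named likewise, was 1.52-fold higher (1.46 to 1.59), and its partner Ifngr1 was 1.33-fold lower (1.27 to 1.38). The number past the rule was 0 with total counts and 4, all lower, with luminal scaling.

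For class I the catalytic subunits of the constitutive proteasome had a median of 0.08 over 3 genes, and its activators a median of 0.02 over 4, with 0 past the rule in either list. Psmb6 and Psme3 had the ratios farthest from 1, 1.11-fold (1.03 to 1.19) and 1.08-fold higher (1.03 to 1.14). Chaperones of the peptide loading complex and the tapasin relative had a median of 0.53 over 4 genes, 0 past the rule. Calr, calreticulin, was 1.63-fold higher (1.605 to 1.66), Pdia3, which pairs with tapasin, 1.57-fold (1.55 to 1.601) and Canx, calnexin, 1.33-fold (1.30 to 1.36). These chaperones also fold many other secreted proteins.

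Scaling adds the same constant to every plain log2 ratio, and somewhat less to ratios of low genes that include the pseudocount. It thus moves both classes together and leaves their gap nearly as it is by construction. The class II median was above 0 under each of the 6 scalings, and the class I median under 1. Scaled to luminal epithelial markers, every plain log2 ratio moves by −0.39 and the class I median is −0.82. The class II median is then 0.05, over 11 genes, since H2-Eb2 then reaches the minimum level. Relative to the pan-leukocyte markers every plain log2 ratio moves by 2.15. The medians, which include the pseudocount, are then 2.67 for class II and 1.70 for class I, so both classes are above 0.

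**Figure D4:**
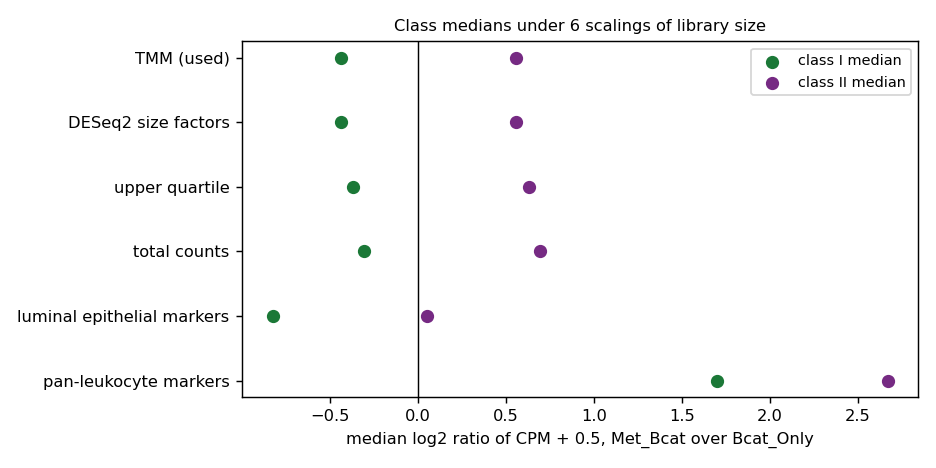
Median log2 ratio of CPM plus 0.5, Met_Bcat over Bcat_Only, of class I (green) and class II members (purple) under 6 scalings of library size, 1 row for each. A scaling moves both points together, and the class I point lies above 0 in the row where the pan-leukocyte markers are set equal and below 0 in the other 5 rows.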

How the data were processed

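RNA sequencing of whole prostate tumour tissue gave 1 library for each of the genotypes Bcat_Only and Met_Bcat. The authors deposited raw counts of reads for each gene as whole numbers, beside mm9 coordinates and exon lengths, per the file headers. Columns were matched to samples through the sample number in their headings. TopHat2 version 2, HTSeq, edgeR and mm9 are named per the submitters' processing notes. Settings and the strand option were not found in those notes, so reads of overlapping genes cannot be assigned with certainty.

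The exon length the authors deposited, in bases, was used as a scale for CPM per kilobase (other deposited fields were coordinates). Libraries were scaled by TMM in edgeR 4.0.16 under R 4.3.3, with factors 0.955 and 1.05, and ratios were given 95% exact (Clopper-Pearson) intervals conditional on the summed reads with scipy 1.17.1. Ratios of read sums have intervals from the standard error of the log odds ratio. PCR reads without molecular identifiers are not independent molecules. Counts of 0 were given a floor of 3 reads, which is 0.163 CPM for Bcat_Only or 0.142 for Met_Bcat. Median log2 ratios used a pseudocount of 0.5 CPM, which understates the differences of low genes, while single genes are given as plain ratios. The procedure was tested on simulated counts drawn with counting error alone. That test cannot speak to spread between animals or to PCR copies.

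Every member with a mean of at least 1 CPM was named, others by range or, from 10 reads, by name; of each of 17 lists of other genes up to 3 were named, those whose near interval end lay farthest from no difference, with Ptprc, Epcam and Ifng beside them; 1 gene under this rule is not reported here. Markers at 0 in a library are also named, and any further gene is said to be chosen after its value was seen. The members and lists were chosen with earlier results of these data known. Dates stood in place of 25 symbols, which were restored by gene identifier. Words of 51 bases were compared between GENCODE M21 transcripts, where 47 of the 50 rows were found, and promoters came from RefSeq (GRCm38.p6), none of whose coordinates were mixed with mm9. The alternatives were other scalings (DESeq2 1.42.0 size factors, total counts, upper quartile, marker lists), minimum levels, folds, pseudocounts, means and leaving out members.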

Additional observations from a re-analysis of the deposited data

How the results depend on the processing

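The class II to class I gap in median log2 ratio, 1.0, was 0.48 with means in place of medians and 0.63 with no minimum level, and a scaling can hardly move it, since it shifts both classes alike. The class II to class I read ratio was 1.83 without B2m and Cd74. The class I median of −0.44 became −0.30 with total counts, −0.82 with luminal and 1.70 with pan-leukocyte scaling, −0.30 as a mean and −0.29 without the Q, T and M series. The class II median of 0.56 became 0.052 with luminal scaling, where H2-Eb2 joins, and 2.67 with pan-leukocyte scaling, 0.19 with no minimum and 0.18 as a mean. The 5 class I genes past the 2-fold rule became 2 with total counts or the upper quartile, 15 (all higher) with pan-leukocyte scaling, 1 with a minimum of 10 CPM, 1 at 4-fold and 0 without the Q, T and M series. The 1 class II gene became 2 with luminal scaling, with a minimum of 0.2 CPM or with no minimum, 7 (all higher) with pan-leukocyte scaling, 0 with a minimum of 10 CPM or at 4-fold, and 6 at 1.5-fold. Luminal scaling changed the sign of 4 of the 31 members, and pan-leukocyte scaling that of 17. Among the 17 were 4 genes lower by the rule, here as log2 ratios with the pseudocount: H2-M3 (0.74), H2-Ob (0.075), H2-Q7 (0.74) and H2-Q6 (0.78). The cause of these shifts was not tested beyond the scaling itself and the number of genes left. No paired analysis was possible because each genotype has 1 library. Depth limits genes of few reads, such as H2-Oa, whose interval spans no difference.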

Other observations

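MHC class I-like molecules encoded outside the H2 complex were measured for 6 of 7 genes, with a median log2 ratio of −0.48, 1 higher and 1 lower in Met_Bcat by the 2-fold rule, and a summed level of 212 CPM in Bcat_Only and 139 CPM in Met_Bcat. Azgp1, a secreted class I-like glycoprotein of glandular epithelium, had 32 and 616 reads, 16.8-fold higher (11.8 to 24.8). Fcgrt, the neonatal Fc receptor for IgG, had 2039 and 321 reads, 7.27-fold lower (6.46 to 8.1996). Hfe, the haemochromatosis protein that tunes iron uptake, was 1.71-fold lower (1.52 to 1.92). All intervals cover counting error between these 2 libraries only.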
